A study of Mus musculus with 14 samples.

Results

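Actb and Gapdh encode cytoplasmic beta-actin and the glycolytic enzyme glyceraldehyde-3-phosphate dehydrogenase, and both mRNAs are customary reference genes. Their 3' ends were taken as every poly(A) site of the deposited table that lies in a given mm9 window over each gene, on the minus strand of chromosome 5 for Actb and of chromosome 6 for Gapdh. The Actb window held 1 site and the Gapdh window 3, together 4 of the 33590 sites in the table. The data come from 3T3 cells, an established mouse fibroblast line. Untreated cells gave 2 control libraries, cells kept in 10 µg/ml actinomycin D gave 1 library at each of 4 times (1, 2, 4 and 8 h), and a sucrose gradient gave 1 library for each of its 6 fractions. The series also lists 3P-Seq libraries, from 3T3 and mouse embryonic stem cells, which were not analysed here. The study asked how the choice of 3' end goes with mRNA stability and translation. Library totals ran from 4045420 reads at 8 h to 6433503 in control 2 for the time course, and from 1663346 to 11575417 over the gradient.

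An mRNA's 3' end is made by cleavage of the transcript a short way downstream of a poly(A) signal, most often AATAAA, followed by addition of the poly(A) tail. Actinomycin D blocks transcription, so that the reads left at later hours come from mRNA made before the drug was added. In a sucrose gradient, mRNAs that carry more ribosomes sediment further. Beta-actin mRNA is the template for a major component of the cytoskeleton, and its gene is a known target of the serum response. Gapdh mRNA has given rise to many processed pseudogenes, copies of the spliced mRNA inserted elsewhere in the genome.

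The poly(A) signals of the annotated protein-coding transcripts are printed because they show that both genes carry the same signal and that their surroundings differ in how unique they are. Both stretches are transcript sequence from GENCODE M21 (build GRCm38), 5′ to 3′, with the hexamer AATAAA in capitals.
Actb: acttgagaccAATAAAagtgcacaccttac
Gapdh: gaataccatcAATAAAgttcgctgcaccca
The hexamer began 32 nt before the end of the Actb transcript, which is 1920 nt long, and 20 nt before the end of the Gapdh transcript of 1273 nt. On the sense strand, 40.5% of the 58797 protein-coding transcripts of that annotation hold AATAAA in their last 50 nt. The 30 nt printed for Actb occurred in transcripts of 0 other genes of the annotation, and the 30 nt printed for Gapdh in transcripts of 2 others.

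The single Actb end lay at position 143664802 of chromosome 5 and passed the authors' read filter. It held 22768 reads in control 1 and 23319 reads in control 2. Scaled to library size as CPM, these were 3896 CPM (Wilson 95% interval 3846 to 3947) and 3625 CPM (3578 to 3671). Such intervals cover counting error only, because PCR reads are not independent molecules. Among all sites, the Actb end ranked 15 in each control, so the label of an abundant mRNA held for it. A second Actb end was not listed, so all Actb reads of the table belong to this end, and no share of major and minor ends could be compared.

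The Gapdh window gave the opposite picture. Its end at 125111801 had 1 read in each control, its end at 125111728 had 1 read in control 1 and 0 in control 2, and its end at 125111645 had 0 in both. None of the 3 ends passed the authors' filter. The window therefore summed to 3 reads over both controls, against 46087 for Actb. The Actb to Gapdh ratio of control reads was 15362 (exact 95% interval 5256 to 74496). The most abundant of the Gapdh ends, at 125111801, ranked 25057 among the sites in control 1. The ends listed in the Gapdh window were thus not abundant. By the distances given below, none of them lies at the annotated end of the Gapdh mRNA. Their reads therefore cannot show how abundant that mRNA was, and its label could not be checked.

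Across the time course, the end at 125111801 had 2 reads in the 1 h library, 4 in the 2 h library, 8 in the 4 h library and 0 in the 8 h library. A count of 0 in the 8 h library allows up to 0.742 CPM (3 counts of the library). In the gradient it had 0, 1, 2, 0, 2 and 5 reads in the fractions named 0, 1, 2.5, 4.5, 7.5 and 12. The end at 125111728 had 0 reads in all libraries but control 1, and the end at 125111645 had 0 reads except for 2 in the fraction named 12. The 3 ends summed to 29 reads over the 12 libraries and the Actb end to 348809. The plot of reads by library shows both windows.

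**Figure D1:**
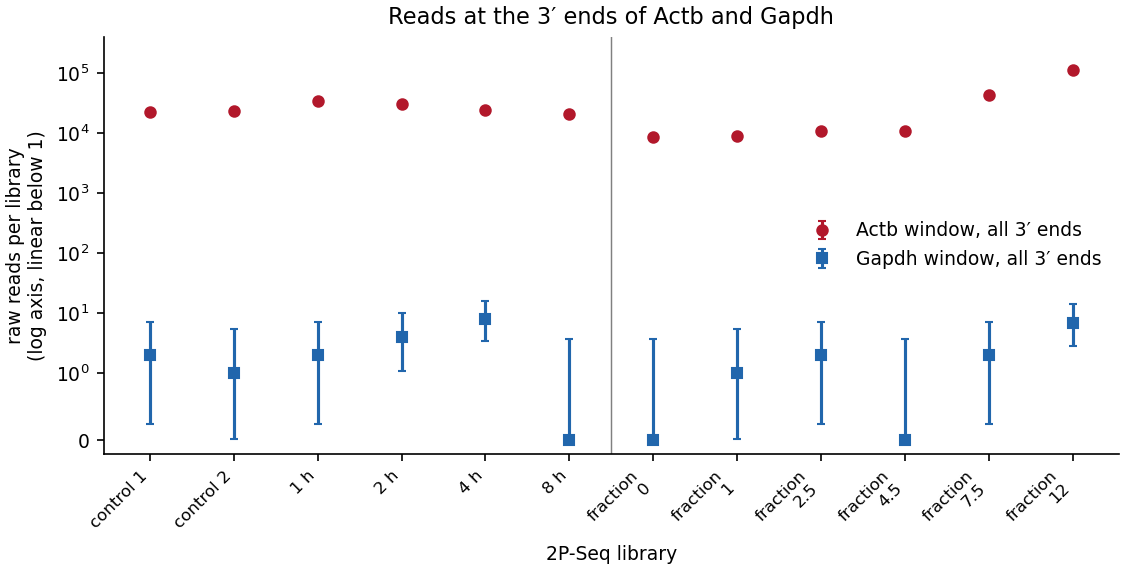
Raw reads at all 3′ ends of the Actb window (circles) and the Gapdh window (squares) in each of the 12 libraries, on a log axis that is linear below 1, with exact Poisson 95% intervals that cover counting error only. Gapdh stays between 0 and 8 reads in every library, while Actb runs from 8708 to 110715.

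The Gapdh ends also lay away from where the annotated mRNA ends. Distances were compared within each build, with no position carried from one build to the other. In GENCODE M21 (GRCm38), the 3' end of Gapdh lies 6154 nt from that of Ncapd2, a condensin subunit gene next to it on the same strand. In the mm9 table, the nearest filter-passing end upstream on the same strand, at 125118026, was 6225, 6298 and 6381 nt from the Gapdh ends. If that end is the one of Ncapd2, the 3 listed ends lie 71, 144 and 227 nt beyond the annotated Gapdh end. Measured from the plus strand end at 125111793, taken as the end of the convergent neighbour Iffo1, they lie 63, 136 and 219 nt beyond it. By either neighbour, none of the 3 ends is at the annotated end of the Gapdh mRNA, and the table lists no other end in the window. A retained-intron transcript of Gapdh ends 6292 nt from the Ncapd2 end, close to the 6298 nt of the end at 125111728. Both neighbouring ends were read in the same libraries, with 1301 and 1714 control reads at 125118026 and 36 and 59 at 125111793.

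The same comparison, under a like assumption for a single neighbour, placed the Actb end near the annotated one. The next filter-passing plus strand end, at 143734861, lay 70059 nt from the Actb end in the mm9 table. The annotated ends of Actb and of Fscn1, an actin-bundling protein gene, are 70070 nt apart in GRCm38. If the end at 143734861 is the one of Fscn1, the distances differ by 11 nt.

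The last 100 nt of the 2 mRNAs differ in how many other annotated transcripts share them. For Actb, 0 other genes of GENCODE M21 had an identical run of at least 25 nt. For Gapdh, 5 other genes did, and in 3 of them the run was at least 90 nt long. These were Gm3839 with 100 nt, the processed pseudogene Gm7336 with 99 nt and Gm10358 with 97 nt. The sources used here do not say how the authors treated reads that match several places, so the Gapdh counts are uncertain. The part of these copies in the low Gapdh counts was not tested.

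After actinomycin D the Actb end was highest at 1 h and then lower, but never below the controls. The counts were divided by the factor that the file header gives for each library (0.791 to 1 in the time course, 0.496 to 1 in the gradient), and are called scaled reads. Controls 1 and 2 held 24443 and 23319 scaled reads. The 1 h library held 37487, the 2 h library 32475, the 4 h library 27172 and the 8 h library 26633. Every treated library lay above both controls. The 1 h library was 1.57-fold above the pooled controls (exact 95% interval 1.55 to 1.59, counting error only), and each later library was lower than the one before it. The 8 h library was still 1.12-fold above the controls (1.10 to 1.13), while control 1 was 1.05-fold above control 2 (1.03 to 1.07). Each time point has 1 library, and the labels do not say that the controls came from separate cultures, so the tests here measure only the spread between these libraries, which may be technical.

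Few well-covered ends stood as high at 1 h. Over 2451 sites with at least 1000 control reads, the median level at 1 h was 1.04-fold of the controls, and 1.80% of the sites were higher than Actb relative to their own controls. The log2 ratio of control 1 to control 2 had an SD of 0.34 over these sites, and was 0.068 for Actb itself. The 1 h step of Actb from the pooled controls was 0.65 log2. That SD is taken across sites of differing read numbers, so it does not measure the spread of Actb. At 8 h the median site was at 0.635-fold of its controls, with the middle 50% between 0.270 and 1.01, and Actb at 1.12-fold was above 79.9% of the sites. By library totals in place of the header factors, Actb was 1.50-fold of the controls at 1 h, 1.26-fold at 4 h and 1.38-fold at 8 h. With that scaling the 8 h level was above the 4 h level. The plot of the Actb level over hours shows both scalings.

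**Figure D2:**
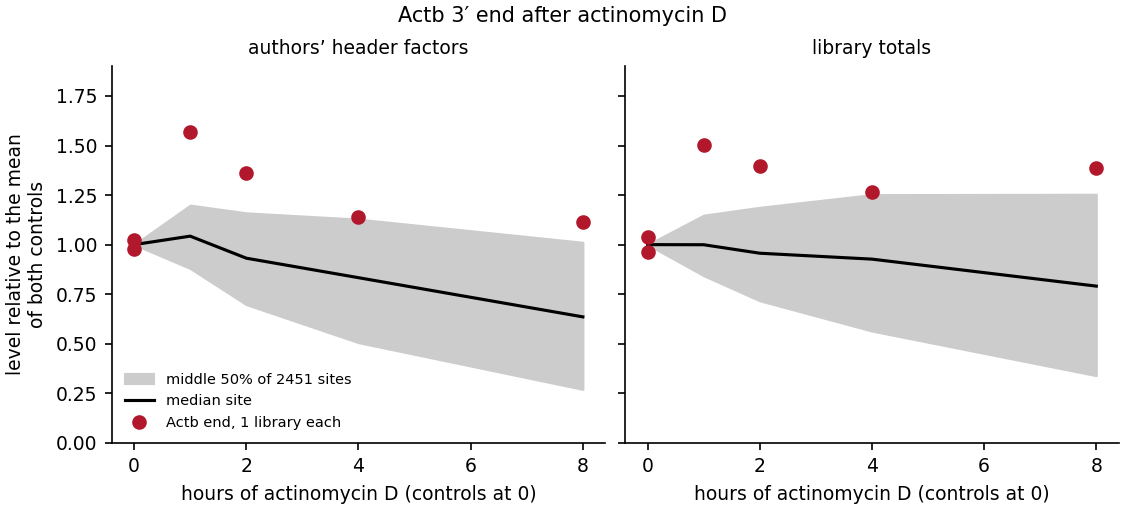
Level of the Actb 3′ end (points, 1 library each, both controls at 0 h) relative to the mean of the controls, against hours of actinomycin D, with the authors' header factors (left) and with library totals (right). The line is the median and the band the middle 50% of 2451 sites with at least 1000 control reads, and Actb is highest at 1 h in both panels.

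A straight line over hours gave no fall of Actb. With the header factors, the fitted slope was -0.0053 ± 0.036 log2 per hour (SE, 6 libraries, edgeR quasi-likelihood test, Benjamini-Hochberg adjusted p = 0.912 over 16913 sites). Its 95% interval, from -0.082 to 0.072, allows a halving of this line no faster than every 12.2 h. Leaving out 1 library at a time moved that bound between 8.73 h (without the 8 h library) and 17.4 h (without the 1 h library). The line does not describe the fall after 1 h. The header-factor steps were 0.866-fold from 1 to 2 h, 0.837-fold from 2 to 4 h and 0.980-fold from 4 to 8 h. Over all sites tested, the median slope was -0.18 log2 per hour, 52.7% were called lower and 2.71% higher, and 81.9% had a slope below that of Actb. Neither direction was called for Actb. A line is a coarse summary of levels that go up and then down, and leaving out the 1 h library turned the slope to 0.014 and leaving out the 8 h library to 0.041. The scaling changed the call: relative to the typical site, with edgeR's TMM, Actb rose by 0.15 ± 0.036 log2 per hour (edgeR adjusted p = 0.0052), where 20.8% of sites were called higher and the median slope was -0.027.

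The authors' deposited table gives the Actb end a half-life of 6.72, in a unit that the header does not state. It was read as hours, because an exponential least-squares fit gave the deposited half-lives of the sites checked. The fit used the scaled reads, its rate was raised by 0.1 per h, and it matched 500 of 500 sites within 0.001 per h. These were drawn at random from sites well read in all 6 time-course libraries, with the longest half-lives left out. For Actb the fitted rate itself was 0.0032 ± 0.031 per h (SE), so nearly all of the rate behind the deposited half-life is the added 0.1 per h. In the authors' deposited table, 85.1% of 17692 filter-passing sites with a value had a shorter half-life than Actb, and the median was 2.88 h. Against the 2436 of these with at least 1000 control reads, whose median was 4.40 h, 74.2% were shorter than Actb. Without each library in turn, the fitted rate ran from -0.023 to 0.017 per h. The table also lists a half-life of 7.89 for the Gapdh end at 125111801 and of 0.0667 for the one at 125111728, which rest on 16 reads and 1 read over the 6 libraries.

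Over the gradient, Actb reads were concentrated in the fraction named 12. The fraction columns are named 0, 1, 2.5, 4.5, 7.5 and 12, taken here as fractions 1 to 6 of the labels in ascending order. Raw reads in that order were 8708, 8833, 10858, 10908, 42350 and 110715. In the fraction named 12 the Actb end was the site of rank 3, with 9565 CPM, while in the fraction named 4.5 it ranked 83 with 1186 CPM. After division by the header factors, the fraction named 12 took 55.2% of the Actb reads, and the fractions named 7.5 and 12 together took 73.2%, against a median of 49.8% over the sites described next. The fractions named 1, 2.5 and 4.5 together took 19.4%, and the fraction named 0, which has no ribosomes by its name, took 7.46%.

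Relative to other sites, the Actb share was high in the fractions named 0 and 12, low in those named 2.5 and 4.5, and within the middle 50% of sites in those named 1 and 7.5. In the fraction named 0, its 7.46% was above that of 87.0% of the 16795 filter-passing sites with at least 60 gradient reads, whose median was 3.93%. In the fraction named 4.5, its 5.59% was below that of 97.5% of those sites, whose median was 17.5%. In the fraction named 12, its 55.2% was above 92.3% of them, against a median of 25.7%. Among the 100 sites with the most control reads, the middle 50% lay between 8.56 and 43.6% in the fraction named 12, below Actb. In the fraction named 0 it lay between 2.67 and 9.37%, which includes the 7.46% of Actb. The 3 shares are not independent, because the shares of a site sum to 100%. By library totals in place of the header factors, the fraction named 12 took 40.2% of the Actb reads, the fraction named 0 took 22.0% and the fraction named 4.5 took 4.98%. Both scalings thus gave the same order of those 3 fractions.

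**Figure D3:**
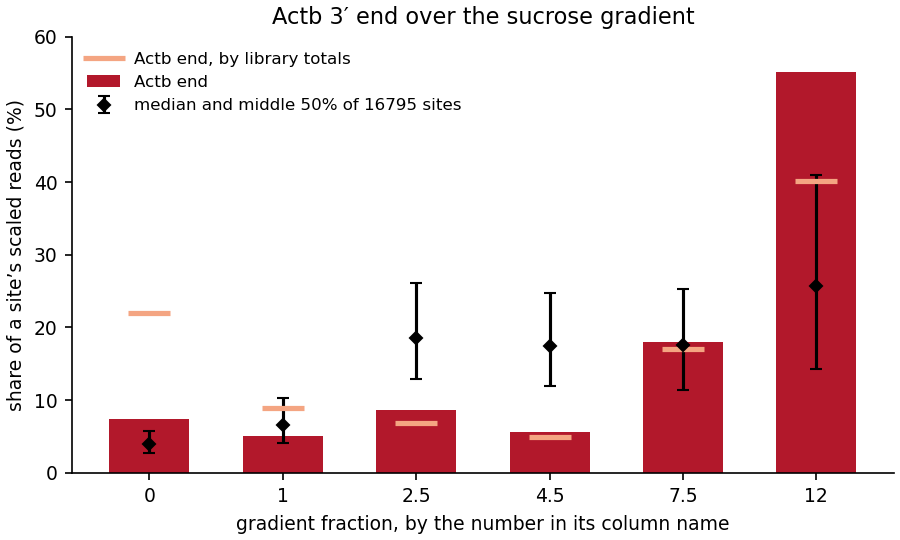
Share of the scaled reads of the Actb 3′ end in each gradient fraction (bars, header factors), with the share by library totals (dashes) and the median and middle 50% of 16795 sites (diamonds with bars, header factors). Actb is above the middle 50% in the fractions named 0 and 12 and below it in those named 2.5 and 4.5.

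The rise towards the heavy fractions was tested as a slope on fraction number. With the header factors it was 0.57 ± 0.22 log2 per fraction (SE, 6 libraries, edgeR adjusted p = 0.0344 over 18484 sites). The background was high: 39.4% of the sites were called higher and 0.876% lower, the median slope was 0.50, and 59.6% of the slopes lay below that of Actb. The call is therefore shared with a large part of the table, and the Actb slope is near its middle. It was lost with TMM (0.064 ± 0.19, edgeR adjusted p = 0.896), where 0.438% of the sites were called higher. It was also lost without fraction 2 or 5, at slopes of 0.54 and 0.59 that are near the one from all fractions (edgeR adjusted p = 0.122 and 0.0690). Without fraction 6 the slope was 0.29 (edgeR adjusted p = 0.425). The number of sites called higher went from 7279 to 12 without fraction 2, 2630 without fraction 1 and 4286 without fraction 6. The labels list 1 library a fraction and no repeat of the gradient, so the test measures scatter around a line only.

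In the authors' deposited table, the Actb end carries 8.49 ribosomes per mRNA. This value is a weighted mean of the fractions' named numbers, with scaled reads as weights, which gave the deposited value within 1e-06 for 30164 of 30164 sites. It was above that of 91.8% of 17964 filter-passing sites with a value, whose median was 6.37. Among the 2451 of these with at least 1000 control reads, the median was 6.69 and 85.6% were below Actb. With library totals in place of the header factors the same mean for Actb was 6.59. Without the fraction named 12, which has the highest weight in the mean, it was 4.17. The table lists 7.40 for the Gapdh end at 125111801, from 10 reads, and 12 for the one at 125111645, from 2 reads.

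**Figure D4:**
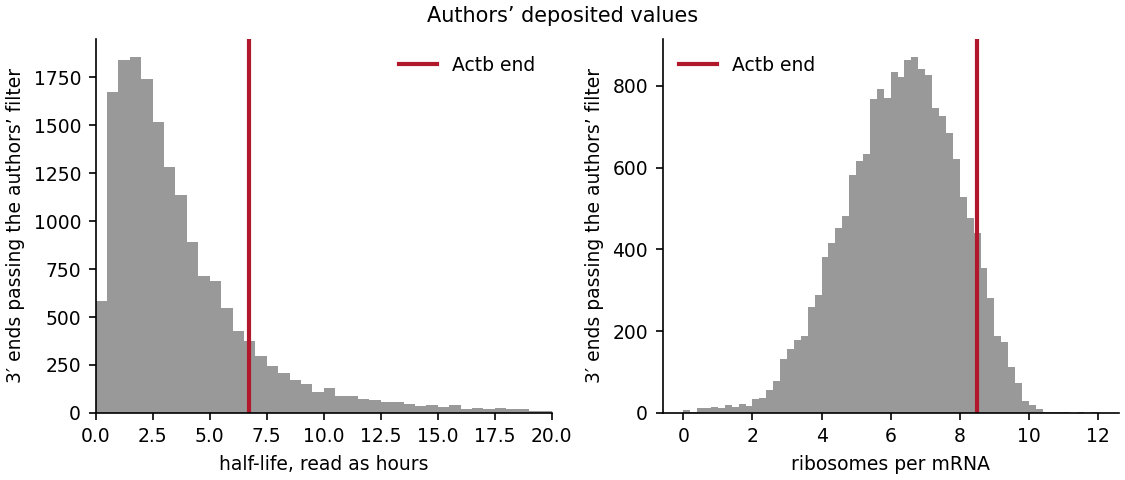
The authors' deposited half-life (left, read as hours, 341 sites above 20 not drawn) and ribosomes per mRNA (right) for 3′ ends that pass their filter, as histograms of sites. The red lines mark the Actb end at 6.72 h and 8.49 ribosomes, to the right of the peak in both panels.

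The sites whose pattern over the 12 libraries was most like that of Actb are named by position only, since the table pairs no gene names with sites. Likeness was Pearson's r of log2(scaled reads + 1), among 2398 sites with at least 1000 control reads, whose median r was 0.41. Sites of 1 chromosome and of both gene windows were left out of these by plan. The 3 highest were the minus strand end at 64465104 of chromosome 13 (r = 0.96), the minus strand end at 21457248 of chromosome 11 (r = 0.94) and the plus strand end at 45903911 of chromosome 5 (r = 0.94). All sites share the same libraries and scaling, so r is a description. The authors' deposited table gives these ends 9.77, 9.49 and 8.78 ribosomes per mRNA, all above the 8.49 of Actb, and half-lives of 9.08, 7.60 and 6.21 h. Both kinds of value are computed from the same scaled reads as r, so they are no separate sign of likeness. The end on chromosome 13 had 2883 and 3503 control reads, 3732 reads at 1 h and 21852 reads in the fraction named 12.

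The Gapdh counts were too low to set Actb against. With 0.5 added to both counts, the log2 ratio of Actb to Gapdh reads had a Pearson r of 0.35 with hours (exact permutation p = 0.489, two-sided, 6 libraries) and of 0.32 with fraction number (exact permutation p = 0.514). Spearman's rho was -0.03 (exact permutation p = 0.983) and 0.03 (exact permutation p = 1). Without the pair of libraries farthest from the median hour or fraction, r was -0.60 and 0.78. The ratio rests on Gapdh counts between 0 and 8 in each library. The Actb level itself had an r of -0.01 with hours (exact permutation p = 0.986, rho 0.41 with exact permutation p = 0.433) and of 0.79 with fraction number (exact permutation p = 0.05, adjusted 0.3, rho 0.71 with exact permutation p = 0.136). Without the 2 farthest libraries these r were 0.76 and 0.75, so the value for hours rests on the 4 and 8 h libraries. Levels were log2 of the scaled reads of a window with 0.5 added, so the 0 Gapdh reads at 8 h count as -1. For the level of the Gapdh window, r was -0.39 with hours (exact permutation p = 0.428, rho 0.12 with exact permutation p = 0.844). With fraction number it was 0.61 (exact permutation p = 0.211, rho 0.64 with exact permutation p = 0.2). Without the 2 farthest libraries these r were 0.86 and -0.18. The ends of that window are not at the annotated Gapdh end, so its level does not describe the Gapdh mRNA. Adjusted over the 6 relations computed, the exact permutation p ran from 0.3 to 0.986 for r and from 0.6 to 1 for rho.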

How the data were processed

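The 2P-Seq libraries were made by RNase T1 digestion, reverse transcription primed on the poly(A) tail and sequencing from the tail, per the labels' protocols. The authors deposited raw read counts for each poly(A) site (annotated by 3P-Seq, mm9 positions) and 1 factor per library to divide by, per the file headers. The table's half-life and ribosomes per mRNA are the authors' own values, other quantities with no unit stated in the headers. The submitters' processing notes name Bowtie, with no version.

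Slopes were fitted on all sites with at least 60 counts over 6 libraries (edgeR 4.0.16, R 4.3.3, quasi-likelihood, robust, offsets from the header factors, called at an adjusted p under 0.05). DESeq2 1.42.0, TMM, RLE, library totals, other count minimums and leaving out each library were alternatives. Fits were checked on simulated data with straight-line slopes and 1 spread for all sites. The check does not cover levels that rise and then fall. Shared transcript ends were found with BLAST+ 2.17.0. Pairs of ends, planned for each gene, could not be compared: Actb has 1 end, and no Gapdh end reaches 20 counts over the time course or over the gradient. Sites most like each gene's major end in r were to be named, and were not for Gapdh, with 8 counts at most in any library. The gene windows, members and tests were chosen with earlier results of these data known. Per-sample columns left unused numbered 0.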

Additional observations from a re-analysis of the deposited data

How the results depend on the processing

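The slope of Actb on hours turned positive with TMM (0.15), RLE (0.15, edgeR adjusted p = 0.0025) and library totals (0.038, edgeR adjusted p = 0.339). It ran from -0.026 to 0.041 without each library. The slope on fraction number lost its call with TMM (0.064), RLE (0.070) and library totals (0.19), and ran from 0.29 to 0.81 without each library, called in 3 of 6 cases. It stayed called with DESeq2, both count minimums and the fraction names as covariate, with adjusted p up to 0.0491 (edgeR, no minimum). The r of the Actb to Gapdh ratio ran from -0.90 to 0.78 with hours (exact permutation p from 0.05 to 0.6) and from 0.15 to 0.72 with fraction (0.217 to 0.792). Actb ribosomes per mRNA ran from 4.17 to 9.18 without each fraction, lowest without the fraction named 12.

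Sites called lower and higher after actinomycin D numbered 8918 and 459, 4774 and 3512 with TMM, 4688 and 3740 with RLE, and 7644 and 975 with library totals. Over the gradient they numbered 162 and 7279, 792 and 81 with TMM, 789 and 90 with RLE, and 512 and 443 with library totals. They numbered 309 and 10008 with DESeq2 and 113 and 3326 with the fraction names, all of these over 18484 sites tested. With no minimum they numbered 312 and 6714 over 30274 sites, and with at least 300 counts 88 and 5526 over 11423 sites. Without each library the ranges were 5999 to 8633 and 280 to 484 over hours, and 28 to 308 and 12 to 9969 over the gradient. They were lowest without the 8 h library and without fraction 2. With no count minimum the Gapdh end at 125111801 had slopes of 0.068 ± 0.26 per hour and 0.50 ± 0.37 per fraction (edgeR adjusted p = 0.863 and 0.304). Library totals as scaling, the added 0.5 and refits of the rate and ribosomes were chosen after seeing the data. Some settings leave fewer libraries or sites, and the cause of the differences between settings was not tested. Libraries could not be paired by replicate, because only the controls have more than 1 library.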
